A study of Mus musculus with 9 samples.

Results

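The genes described are 8 Schwann cell and myelin genes of dermal nerves, taken from a table of 52550 genes by their symbols, Mbp, Pmp22, Prx, Mag, Sox10, S100b, Ncam1 and Ngfr. All 8 were found, and all 8 were among the 22430 genes that passed the filter on low counts. They were measured by RNA sequencing in 9 libraries from the ear dermis of wild-type C57BL/6 mice aged 8 weeks, with 3 libraries in each of 3 groups. VAS+H2O received vaseline on the ear for 5 days and water by gavage for 10 days, 200 µl each time, given as once daily in the labels and methods and as 2 times a day elsewhere in the study. IMQ+H2O received imiquimod cream, an agonist of Toll-like receptor 7 that induces psoriasis-like dermatitis in mice, in place of vaseline, with the same water. IMQ+XYF received imiquimod cream and, in place of water, the herbal decoction Xiao-Yin-Fang (XYF) at 23.3 mg/g. The whole dermal sheet was sequenced without sorting, so fewer Schwann cells and less RNA per Schwann cell cannot be told apart. Per the methods, RNA came from ear sheets of 2 mice, while the figure legends give n = 3 for each group. Whether the 2 mice stand for each library, each group or more was not clear. Libraries of a group may therefore share animals, and p-values measure only the spread between these libraries.

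Schwann cells are the glia of peripheral nerves. Myelinating Schwann cells wrap single large axons in compact myelin, and non-myelinating Schwann cells hold bundles of thin sensory fibres, which are common in skin. SOX10 sets the lineage and, together with EGR2, switches on the genes for myelin proteins. After nerve injury Schwann cells lower these genes and raise those of a repair state, among them Ngfr and Ncam1.

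Total counts ran from 28756305 to 79836881 per library, and 3 counts, the limit that a count of 0 allows, corresponded to between 0.0373 and 0.103 CPM (counts scaled to library size by TMM). This limit covers counting error only. VAS+H2O replicate 3 and IMQ+XYF replicate 2 stood apart within their groups for Mbp, Pmp22, Prx, Mag and Sox10. The former was the highest library of its group, and the latter was at or near the bottom of the 9 libraries. Leaving out both, which keeps 7 libraries, was chosen after the values were seen.

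The label was checked against markers of Schwann cells and of oligodendrocytes. Egr2, the transcription factor of myelination, lay between 8.32 and 117 CPM. Erbb3, a neuregulin receptor of Schwann cells, lay between 49.0 and 102 CPM, and Cdh19, a cadherin of the lineage, between 28.1 and 59.1 CPM. These ranges describe levels only, and which cells of the unsorted dermis made these genes was not tested. In IMQ+H2O against VAS+H2O, Egr2 had a log2 fold change of -0.95 ± 0.72 (SE, edgeR adjusted p = 0.477). Erbb3 stood at -0.25 ± 0.23 (edgeR adjusted p = 0.555) and Cdh19 at 0.16 ± 0.24 (edgeR adjusted p = 0.742). The signs of Egr2 and Erbb3 were opposite to those of Mbp, Pmp22, Prx, Mag and Sox10. Opalin and Olig2, of oligodendrocytes, the myelin-forming cells of the central nervous system, had no count in any library, and Mog did not exceed 0.281 CPM. None of the 4 oligodendrocyte markers passed the filter, and their summed level lay between 0 and 0.620 CPM.

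Per kilobase of annotated exon, Pmp22 stood far above the other members, at 359 ± 85.1 CPM per kb (SD, n = 9 libraries). S100b followed at 54.9 ± 31.3 CPM per kb and Prx at 31.9 ± 11.5 CPM per kb, and S100b was the higher of the pair in 6 of 9 libraries. Sox10 stood at 17.9 ± 5.71 CPM per kb and Mbp at 15.6 ± 5.64 CPM per kb, in that order in 6 of 9 libraries. Ngfr stood at 4.98 ± 0.896 CPM per kb, below Mbp in 9 of 9 libraries. Ncam1, at 2.82 ± 0.618 CPM per kb, and Mag, at 2.72 ± 0.783 CPM per kb, came last, and Ncam1 was the higher in 4 of 9 libraries. So the neighbours Sox10 and Mbp, and Ncam1 and Mag, did not differ beyond their spread. For S100b and Prx the order went with the group. S100b stood at 73.6 ± 26.0, 25.4 ± 8.14 and 65.6 ± 34.2 CPM per kb in VAS+H2O, IMQ+H2O and IMQ+XYF (SD, n = 3 each). Prx stood at 32.5 ± 15.1, 39.2 ± 7.54 and 24.0 ± 8.35 CPM per kb, so the mean of S100b was the lower in IMQ+H2O alone. The exon length used for Mbp spans 16 annotated transcripts, which lowers its value per kb if only the short ones are made.

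Mbp (ENSMUSG00000041607, GRCm38 chromosome 18, 82475146 to 82585637, plus strand) encodes myelin basic protein, which holds the cytoplasmic faces of the myelin membrane together. Its level was 92.4, 107 and 197 CPM in VAS+H2O replicates 1 to 3, 198, 115 and 163 CPM in IMQ+H2O and 141, 53.1 and 125 CPM in IMQ+XYF. The 3 groups overlapped, and the spread inside VAS+H2O (132 ± 56.4 CPM, n = 3) was larger than the distance between the group means. IMQ+H2O differed from VAS+H2O by a log2 fold change of 0.26 ± 0.40 (SE, edgeR adjusted p = 0.741) and IMQ+XYF from IMQ+H2O by -0.58 ± 0.40 (edgeR adjusted p = 0.574).

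Pmp22 (ENSMUSG00000018217, chromosome 11, 63128982 to 63159547, plus strand) encodes a membrane protein of compact peripheral myelin and is also made by cells other than glia. It lay at 621, 729 and 1178 CPM in VAS+H2O, at 1008, 774 and 1036 CPM in IMQ+H2O and at 779, 578 and 896 CPM in IMQ+XYF. The order of libraries was close to that of Mbp, with VAS+H2O replicate 3 at the top and IMQ+XYF replicate 2 at the bottom, and the groups overlapped. The log2 fold change was 0.16 ± 0.26 by imiquimod (edgeR adjusted p = 0.765) and -0.32 ± 0.26 by XYF (edgeR adjusted p = 0.629).

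Prx (ENSMUSG00000053198, chromosome 7, 27499324 to 27520214, plus strand) encodes periaxin, which links the Schwann cell membrane to its basal lamina and keeps the myelin sheath stable. Its level was 130, 136 and 279 CPM in VAS+H2O, 246, 170 and 239.7 CPM in IMQ+H2O and 153, 80.7 and 167 CPM in IMQ+XYF. All 3 IMQ+XYF libraries lay below all 3 IMQ+H2O libraries, although the highest of the first stood only just under the lowest of the second. The log2 fold change was 0.27 ± 0.35 by imiquimod (edgeR adjusted p = 0.702) and -0.71 ± 0.36 by XYF (edgeR adjusted p = 0.464), so neither passed the test.

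Mag (ENSMUSG00000036634, chromosome 7, 30899176 to 30914873, minus strand) encodes myelin-associated glycoprotein, an adhesion molecule on the inner face of the sheath that touches the axon. It was the member with the lowest level in CPM, at 7.71, 8.48 and 13.1 CPM in VAS+H2O, 13.3, 11.04 and 16.5 CPM in IMQ+H2O and 9.12, 7.08 and 13.2 CPM in IMQ+XYF. IMQ+H2O held the 2 highest libraries and IMQ+XYF replicate 2 was the lowest, with overlap between groups. Its log2 fold changes of 0.48 ± 0.29 by imiquimod (edgeR adjusted p = 0.369) and -0.47 ± 0.29 by XYF (edgeR adjusted p = 0.529) were of nearly equal size and opposite sign, and both use the same IMQ+H2O libraries.

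Sox10 (ENSMUSG00000033006, chromosome 15, 79154908 to 79165240, minus strand) encodes the transcription factor of the Schwann cell lineage, which melanocytes also carry. Its level was 43.7, 30.2 and 68.4 CPM in VAS+H2O, 78.8, 69.8 and 65.0 CPM in IMQ+H2O and 46.9, 31.6 and 58.4 CPM in IMQ+XYF. IMQ+H2O was the tightest group (71.2 ± 6.96 CPM, n = 3), lay above all IMQ+XYF libraries and overlapped VAS+H2O through VAS+H2O replicate 3 alone. The log2 fold change was 0.58 ± 0.30 by imiquimod (edgeR adjusted p = 0.301) and -0.64 ± 0.30 by XYF (edgeR adjusted p = 0.441).

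S100b (ENSMUSG00000033208, chromosome 10, 76253853 to 76261159, plus strand) encodes a calcium-binding protein that is a standard stain for Schwann cells and is also made by chondrocytes, adipocytes and melanocytes. It ran against the myelin genes, at 151, 74.3 and 103 CPM in VAS+H2O, 49.6, 25.5 and 38.1 CPM in IMQ+H2O and 55.7, 154 and 82.5 CPM in IMQ+XYF. Every IMQ+H2O library lay below every library of the other groups, and IMQ+XYF replicate 2, the lowest library for Mbp, Pmp22, Prx and Mag, was the highest for S100b. The log2 fold change was -1.54 ± 0.41 by imiquimod (edgeR adjusted p = 0.0968), with a 95% interval from -2.47 to -0.60. By XYF it was 1.37 ± 0.41 (edgeR adjusted p = 0.364), with an interval from 0.43 to 2.30. The imiquimod value missed the threshold in edgeR and passed it in DESeq2 (adjusted p = 0.00720), and it passed in edgeR when IMQ+XYF replicate 2 was left out (adjusted p = 0.0467). Without that library the XYF value was 0.90.

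Ncam1 (ENSMUSG00000039542, chromosome 9, 49502136 to 49798925, minus strand) encodes the neural cell adhesion molecule of non-myelinating Schwann cells, also found on muscle satellite cells and denervated muscle fibres. It lay at 23.6, 32.7 and 27.3 CPM in VAS+H2O, 31.8, 22.7 and 22.7 CPM in IMQ+H2O and 17.2, 24.0 and 18.1 CPM in IMQ+XYF. IMQ+XYF held the 2 lowest libraries, and its replicate 2 fell within the range of the other groups. The log2 fold change was -0.12 ± 0.19 by imiquimod (edgeR adjusted p = 0.770) and -0.38 ± 0.20 by XYF (edgeR adjusted p = 0.473). IMQ+XYF against VAS+H2O gave -0.50 ± 0.19 (edgeR adjusted p = 0.222), the lowest adjusted p of the members in that comparison.

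Ngfr (ENSMUSG00000000120, chromosome 11, 95568818 to 95587735, minus strand) encodes p75, the low-affinity neurotrophin receptor of immature, non-myelinating and repair Schwann cells. It varied least, at 16.0, 16.7 and 23.0 CPM in VAS+H2O, 17.9, 15.5 and 13.2 CPM in IMQ+H2O and 19.8, 13.6 and 18.7 CPM in IMQ+XYF, a 1.74-fold range. All groups overlapped. The log2 fold change was -0.26 ± 0.20 by imiquimod (edgeR adjusted p = 0.496) and 0.16 ± 0.20 by XYF (edgeR adjusted p = 0.772).

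**Figure D1:**
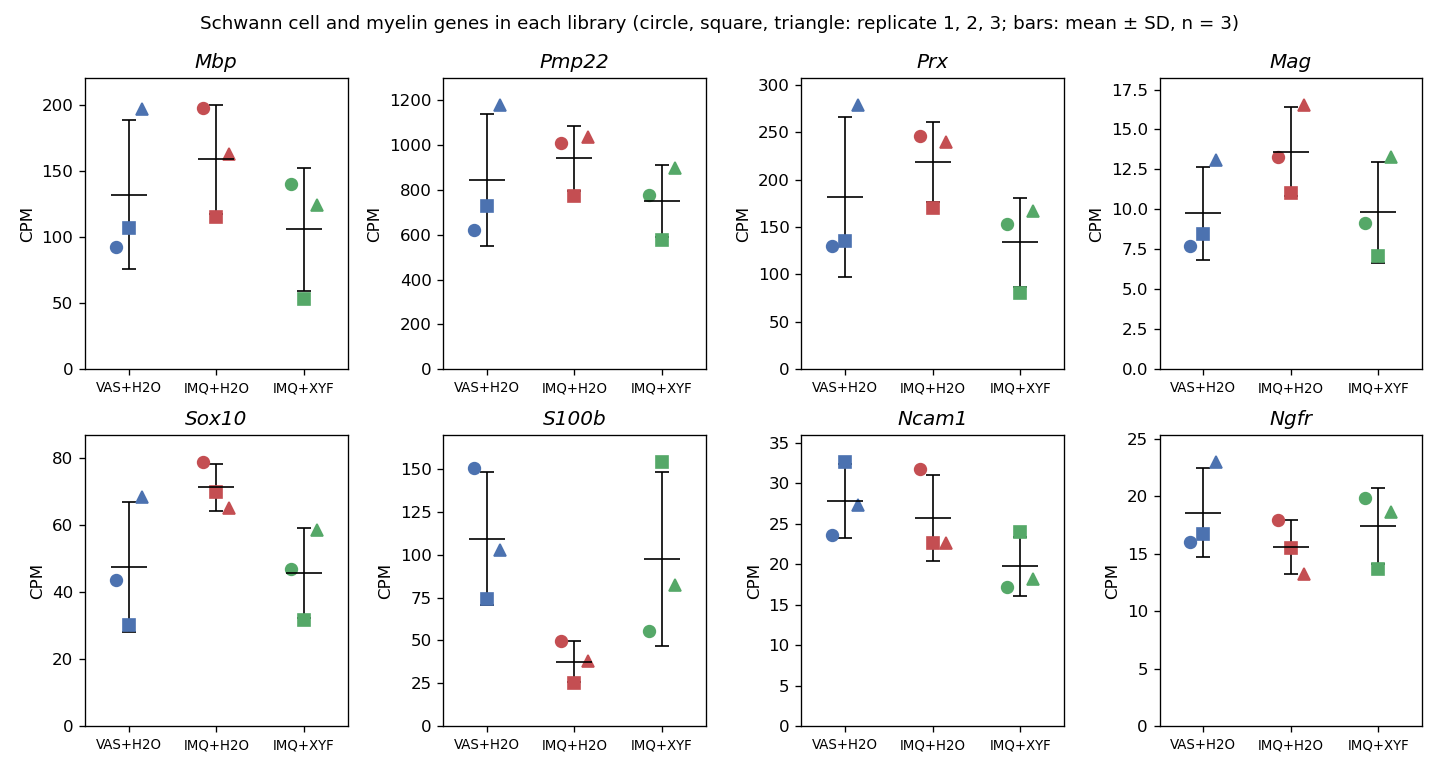
Level of each of the 8 genes in CPM (vertical axes start at 0) by group, with 1 point per library (circle, square and triangle for replicates 1, 2 and 3) and a bar for the mean ± SD over 3 libraries. Mbp, Pmp22, Prx, Mag and Sox10 share a pattern with IMQ+XYF replicate 2 at or near the bottom, while S100b is lowest in IMQ+H2O, between 25.5 and 49.6 CPM.

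Counted over the members, edgeR called 0 of 8 in IMQ+H2O against VAS+H2O, where 0.994% of all tested genes were called (223 of 22430). It called 0 of 8 in IMQ+XYF against IMQ+H2O, where 0.00892% of all genes were called (2 genes), and 0 of 8 in IMQ+XYF against VAS+H2O, where 1.20% were called (270 genes). At an unadjusted edgeR p under 0.05 there was 1 of 8 members in each comparison, S100b for imiquimod and for XYF, and Ncam1 for IMQ+XYF against VAS+H2O, beside 20.9%, 11.7% and 18.3% of all tested genes in the same order. DESeq2 called 1, 0 and 0 members, beside 4.23%, 1.11% and 3.52% of the genes to which it gave an adjusted p. A call needed an adjusted p of 0.05 or lower and an absolute log2 fold change of 1 or higher, the limits given in the study's methods.

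By position alone, the groups did not overlap for 1 of 8 members in IMQ+H2O against VAS+H2O, where 31.5% of all genes had groups that did not overlap. For IMQ+XYF against IMQ+H2O it was 3 of 8 members (Prx, Sox10 and S100b) beside 18.0% of all genes, and for IMQ+XYF against VAS+H2O it was 0 of 8 beside 22.1%. With 8 genes that share libraries, these shares are descriptions. The median log2 fold change of the members was 0.21 by imiquimod, -0.43 by XYF and -0.17 between IMQ+XYF and VAS+H2O, beside medians over all genes of -0.02, 0.01 and -0.02. The comparisons by imiquimod and by XYF share the IMQ+H2O libraries, and the other pairs share VAS+H2O or IMQ+XYF.

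Without VAS+H2O replicate 3, the median of the members by imiquimod was 0.57 in place of 0.21, and Mbp, Prx and Sox10 stood at 0.67, 0.72 and 0.94. Without IMQ+XYF replicate 2, the values by XYF shrank for Mbp from -0.58 to -0.23, for Prx from -0.71 to -0.42 and for Sox10 from -0.64 to -0.41. Between IMQ+XYF and VAS+H2O the sign itself rested on these libraries. Mbp, Pmp22, Sox10 and Ngfr turned from slightly lower to slightly higher in IMQ+XYF when either was left out. No member was past the threshold in that comparison under any of the 14 alternatives run.

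**Figure D2:**
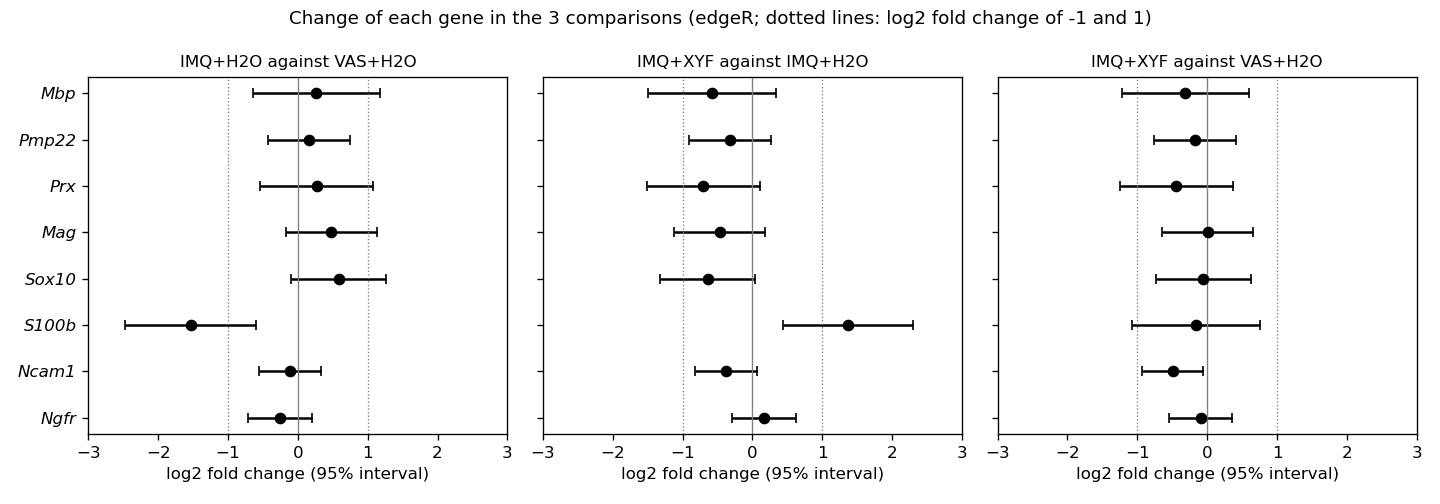
Log2 fold change of each gene (horizontal axis) with its 95% interval from edgeR in the 3 comparisons, 3 libraries per group, with dotted lines at -1 and 1. The interval of S100b excludes 0 in the first and second comparisons, at -1.54 and 1.37, and that of Ncam1 excludes 0 in the comparison of IMQ+XYF with VAS+H2O, at -0.50. The intervals of the other 6 genes include 0 in all 3.

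Across the 9 libraries the members fell into 1 tight group and 3 genes apart. Mbp, Pmp22, Prx, Mag and Sox10 varied together from library to library, with Pearson's r between 0.781 and 0.967 and Spearman's rho between 0.700 and 0.933 over their 10 pairs, on log2 CPM. With the group means taken out, r was between 0.730 and 0.970, so the libraries of 1 group differed from each other along the same line. Over 7 libraries, without VAS+H2O replicate 3 and IMQ+XYF replicate 2, r was between 0.665 and 0.943. Ngfr correlated with these 5 genes at r between 0.168 and 0.564, and at 0.549 to 0.864 with group means taken out, but at -0.352 to 0.040 over the 7 libraries, so this relation rested on the 2 left out. S100b correlated with the 5 genes at r between -0.580 and -0.419, at -0.399 to -0.108 with group means taken out and at -0.592 to -0.511 over the 7 libraries. Ncam1 correlated with them between -0.061 and 0.183, at -0.392 to -0.089 with group means taken out and at -0.141 to 0.162 over the 7 libraries. The values describe 9 libraries in which the genes share depth, scaling and tissue piece.

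Within the tight group, Mbp also kept a nearly fixed proportion to Prx. Mbp had between 65.8 and 91.6 reads per 100 Prx reads, a 1.39-fold range, whereas its level in CPM varied 3.72-fold. Over the 7 libraries the ranges were 1.35-fold and 2.14-fold. By group, it stood at 73.5 ± 4.72, 72.1 ± 7.17 and 77.3 ± 13.1 reads per 100 Prx reads in VAS+H2O, IMQ+H2O and IMQ+XYF (SD, n = 3 each). The group means of this ratio lay within the spread of the libraries. Pmp22, Mag and Sox10 ranged 1.75-fold, 1.87-fold and 1.84-fold against Prx, compared with 2.04-fold, 2.34-fold and 2.61-fold in CPM. Over the 7 libraries they ranged 1.31-fold, 1.47-fold and 1.84-fold against Prx, compared with 1.67-fold, 2.14-fold and 2.61-fold in CPM. The other members were wider against Prx than in CPM: S100b ranged from 14.96 to 191 reads per 100 Prx reads, or 12.8-fold, Ncam1 ranged 3.14-fold and Ngfr 3.07-fold. These were 7.74-fold, 2.54-fold and 2.35-fold over the 7 libraries. The ratio to Prx was chosen after the values were seen.

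**Figure D3:**
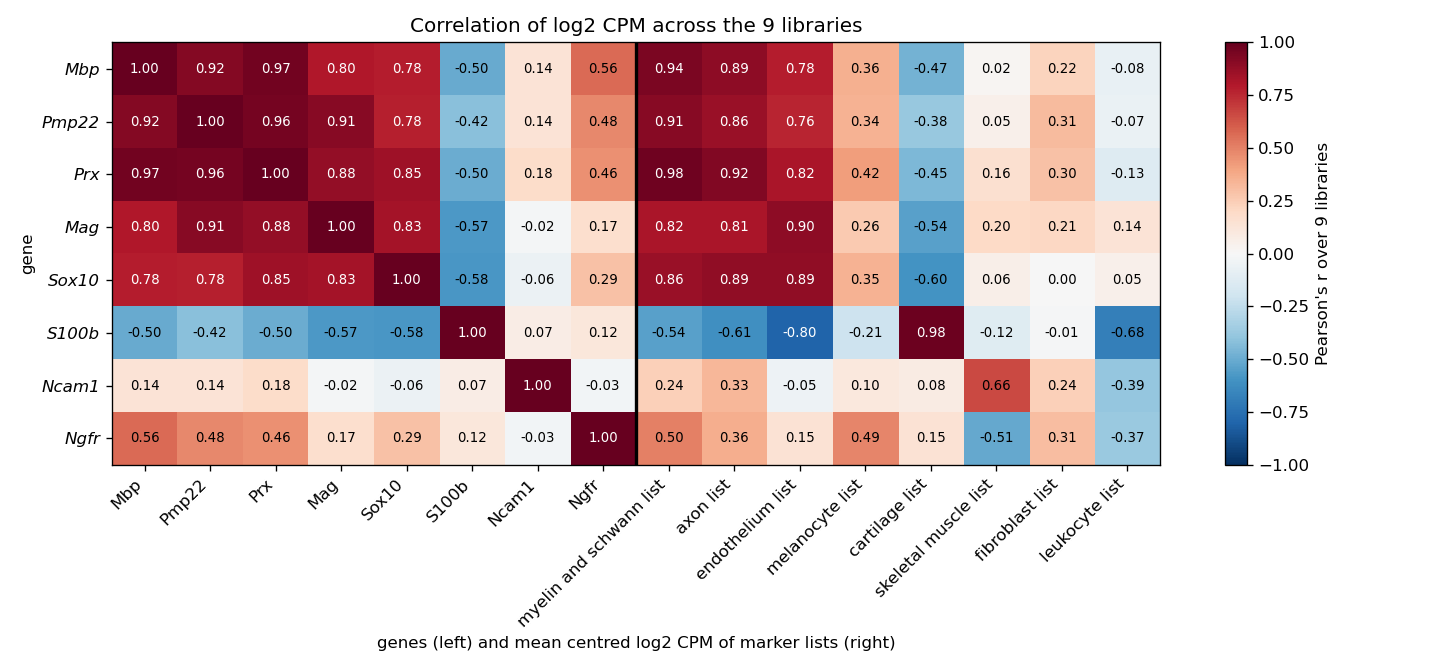
Pearson's r of log2 CPM over the 9 libraries between the 8 genes (left block) and between each gene and the mean centred log2 CPM of marker lists (right block), printed in each cell and coloured from -1 to 1. Mbp, Pmp22, Prx, Mag and Sox10 form a red block with the myelin, axon and endothelium lists, and S100b pairs with the cartilage list at 0.98.

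The upstream sequences of members from the tight group, and of S100b for contrast, are shown because these genes moved together or apart in the same libraries and SOX10 is itself a member. They are the 250 bases before the RefSeq start site nearest to the annotated gene start (GRCm38.p6, 5′ to 3′ on the strand of the gene). For Prx this is chr7:27499074-27499323 on the plus strand, for Pmp22 chr11:63128732-63128981 on the plus strand, for Mag chr7:30914864-30915113 on the minus strand and for S100b chr10:76253586-76253835 on the plus strand. Capitals mark the SOX core letters ACAAAG or ACAATG on either strand (CTTTGT or CATTGT in reverse).
Prx: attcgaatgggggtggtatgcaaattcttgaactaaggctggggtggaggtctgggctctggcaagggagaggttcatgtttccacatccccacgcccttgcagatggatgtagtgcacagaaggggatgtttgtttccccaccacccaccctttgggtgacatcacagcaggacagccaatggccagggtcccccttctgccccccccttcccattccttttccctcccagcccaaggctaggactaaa
Pmp22: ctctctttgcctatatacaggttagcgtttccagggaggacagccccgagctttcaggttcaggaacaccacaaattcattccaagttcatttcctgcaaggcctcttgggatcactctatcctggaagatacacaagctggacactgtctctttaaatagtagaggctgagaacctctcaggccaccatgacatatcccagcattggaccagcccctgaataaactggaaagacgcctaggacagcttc
Mag: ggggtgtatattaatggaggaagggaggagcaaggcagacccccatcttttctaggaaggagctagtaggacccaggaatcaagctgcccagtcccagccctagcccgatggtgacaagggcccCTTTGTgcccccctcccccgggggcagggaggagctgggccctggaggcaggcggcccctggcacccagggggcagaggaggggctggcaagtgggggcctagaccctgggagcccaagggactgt
S100b: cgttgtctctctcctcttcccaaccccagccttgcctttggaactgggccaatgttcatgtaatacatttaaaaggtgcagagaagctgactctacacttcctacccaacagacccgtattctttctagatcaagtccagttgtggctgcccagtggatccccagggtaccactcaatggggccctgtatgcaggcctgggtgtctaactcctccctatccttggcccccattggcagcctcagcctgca
Windows were read for 5 members, Pmp22, Prx, Mag, S100b and Ngfr. Mbp was left out of this search, and no RefSeq window was found for Sox10 and Ncam1. Of the windows read, that of Mag alone held such letters, once, with its first base at position -126 from the start site. Over all 32851 windows of this length, 16.5% held ACAAAG and 10.7% held ACAATG on either strand, and 25.2% held at least 1 of them. A match of 6 letters is a description and not a binding site, and no match says only that the letters are not in this window.

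A further list held 30 myelin and Schwann cell genes outside the members. All 30 were tested, 23 had a positive log2 fold change by imiquimod (median 0.24) and 3 by XYF (median -0.52). edgeR called 0 of 30 in each comparison, with 3, 6 and 2 genes at an unadjusted p under 0.05. Over all tested genes 20.9%, 11.7% and 18.3% had such a p, and the counts of this kind for the lists that follow stand beside the same shares. DESeq2 called 1 gene, Pou3f1, a transcription factor of the promyelinating stage, lower by imiquimod at -1.44 (DESeq2 adjusted p = 0.0496), and it is named here after its value was seen. Fa2h, which makes hydroxylated myelin lipids and is also active in skin, was the list's most abundant gene. It stood at 951 ± 4.38, 1017 ± 98.6 and 586 ± 335 CPM in VAS+H2O, IMQ+H2O and IMQ+XYF (SD, n = 3 each). By XYF, Fa2h differed by -0.80 ± 0.33 (edgeR adjusted p = 0.404). Without IMQ+XYF replicate 2 the median of the list by XYF was -0.28, with 5 of 30 positive, and without VAS+H2O replicate 3 the median by imiquimod was 0.43.

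Of 14 genes of the repair state, 12 were tested. By imiquimod 10 of 12 had a positive log2 fold change (median 0.23), by XYF 5 (median -0.11) and between IMQ+XYF and VAS+H2O 6 (median 0.058). edgeR called 0 of them in all 3 comparisons, with 4, 1 and 3 genes at an unadjusted p under 0.05. Jun, the regulator of the repair state and an immediate early gene in many cells, stood at 1921 ± 368 CPM in VAS+H2O, 1117 ± 66.3 CPM in IMQ+H2O and 1496 ± 215 CPM in IMQ+XYF, a log2 fold change of -0.78 ± 0.17 by imiquimod (edgeR adjusted p = 0.0596). Tnc, an injury-induced matrix protein also made by fibroblasts, went from 107 ± 16.6 CPM to 332 ± 179 CPM and 426 ± 350 CPM, at 1.63 ± 0.60 by imiquimod (edgeR adjusted p = 0.176). DESeq2 called Tnc higher by imiquimod, at 1.66 (DESeq2 adjusted p = 0.0414). In IMQ+XYF against VAS+H2O it called Tnc at 2.01 (DESeq2 adjusted p = 0.00745) and Artn, a ligand for sensory and sympathetic neurons, at 1.44 (DESeq2 adjusted p = 0.0103).

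Of 7 genes of non-myelinating Schwann cells, the cells that carry Ncam1 and Ngfr, edgeR and DESeq2 called 0 in each comparison, and 0 had an unadjusted edgeR p under 0.05. Their medians were -0.15, -0.10 and -0.09. Over the 9 libraries the mean of this list correlated with Ngfr at r = 0.74 and with Ncam1 at r = 0.039. With group means taken out, r was 0.82 for Ngfr and -0.013 for Ncam1. Over the 7 libraries without VAS+H2O replicate 3 and IMQ+XYF replicate 2, it was 0.49 and -0.13. Lpar1, a lysophosphatidic acid receptor, lay at 110 ± 4.99, 98.6 ± 5.03 and 103 ± 14.5 CPM in the 3 groups. Scn7a, a sodium channel of these cells, lay at 83.8 ± 26.0, 105 ± 7.58 and 77.9 ± 30.2 CPM.

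Among 16 genes of neurotrophin and neuregulin signalling, to which Ngfr belongs, edgeR called 0, 0 and 1 and DESeq2 called 2, 0 and 2 in the 3 comparisons, and 4, 3 and 4 had an unadjusted edgeR p under 0.05. The gene called by edgeR was Nrg1, whose protein on axons tells Schwann cells how much myelin to make and which keratinocytes and fibroblasts can also express. It stood at 1.19 ± 0.452 CPM in VAS+H2O, 3.31 ± 1.36 CPM in IMQ+H2O and 6.87 ± 3.97 CPM in IMQ+XYF, and rose by 2.55 ± 0.50 between VAS+H2O and IMQ+XYF (edgeR adjusted p = 0.0456). The call held in 1 of 9 fits with a library left out, where the adjusted p ran from 0.0223 to 0.150, and DESeq2 called it (adjusted p = 2.35e-05). DESeq2 also called Nrg1 (1.51, DESeq2 adjusted p = 0.0337) and Mcam, a cell adhesion molecule of vessels (1.03, DESeq2 adjusted p = 0.0149), higher by imiquimod. The most abundant genes of the list, Maged1, a binding partner of p75, and Ntrk2, the BDNF receptor, stood at -0.53 ± 0.14 (edgeR adjusted p = 0.0971) and -0.52 ± 0.25 (edgeR adjusted p = 0.279) by imiquimod.

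Of 16 axon genes listed, 13 were tested, and the list summed to between 271 and 610 CPM over the 9 libraries. edgeR and DESeq2 called 0 in each comparison, with 4, 4 and 5 genes at an unadjusted edgeR p under 0.05 and medians of 0.20, -0.49 and -0.31. Thy1, also a fibroblast gene, lay at 247 ± 65.4, 202 ± 22.5 and 216 ± 65.5 CPM. Kcna2, a potassium channel beside the nodes of Ranvier, lay at 127 ± 37.8, 118 ± 3.49 and 87.9 ± 10.6 CPM. Averaged over the 9 libraries, Thy1, Kcna2 and Kcna1 made up the largest parts of the list, at 222, 111 and 49.0 CPM. The neurofilament genes Nefl, Nefm and Nefh lay at 0.146, 0.328 and 0.514 CPM, and Nefl did not pass the filter. Whether the list reflects axons was not tested. The mean of the axon list correlated with the 5 genes of the tight group at r between 0.81 and 0.92, and between 0.71 and 0.89 over the 7 libraries without VAS+H2O replicate 3 and IMQ+XYF replicate 2.

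Of the other cell types, endothelium varied with the tight group. The endothelium list (8 of 8 tested, led by Pecam1) correlated with the 5 genes at r between 0.76 and 0.90, and between 0.71 and 0.91 over the same 7 libraries. Without the 2 libraries farthest from the median of the list, r ran from 0.35 for Mbp to 0.86 for Sox10. Its summed level ran from 598 to 892 CPM in VAS+H2O, 1212 to 1265 CPM in IMQ+H2O and 468 to 1124 CPM in IMQ+XYF, with 8 of 8 genes positive by imiquimod and 0 of 8 by XYF. edgeR called 0 of them in each comparison, with 4, 5 and 0 at an unadjusted p under 0.05, and DESeq2 called 1, 0 and 0. Without IMQ+XYF replicate 2 the IMQ+XYF libraries summed to 809.5 and 1124 CPM. The melanocyte list, whose cells also carry Sox10, summed to 99.6 to 141 CPM in VAS+H2O, 78.5 to 152 CPM in IMQ+H2O and 49.5 to 107 CPM in IMQ+XYF, and was led by Mitf. Its mean correlated with Sox10 at 0.35, and at -0.13 over the 7 libraries. With the 5 genes together the melanocyte list gave r between 0.26 and 0.42 and the fibroblast list between -0.0039 and 0.31. The leukocyte list gave r between -0.13 and 0.14 and the keratinocyte list between -0.45 and -0.20. Over the 7 libraries these ranges were -0.67 to -0.13, -0.64 to -0.18, 0.38 to 0.51 and -0.59 to -0.28 in the same order. The melanocyte, fibroblast and leukocyte values thus depended on the 2 libraries left out. Fibroblast genes, led by Dcn, summed to 12404 to 19114 CPM in VAS+H2O, 9125 to 13879 CPM in IMQ+H2O and 9289 to 13442 CPM in IMQ+XYF. Keratinocyte genes, led by Krt10, summed to 2849 to 5529 CPM in VAS+H2O, 1880 to 2837 CPM in IMQ+H2O and 3487 to 13484 CPM in IMQ+XYF, so the last 2 groups did not overlap. By XYF 4 of 4 keratinocyte genes were positive (median 1.48), each with an unadjusted edgeR p under 0.05, and edgeR called 0 and DESeq2 called 2 of them. Without IMQ+XYF replicate 1, the highest library, the median was 0.78. Leukocyte genes, led by Lyz2, summed to 294 to 507 CPM in VAS+H2O, 470.1 to 603 CPM in IMQ+H2O and 439.9 to 497 CPM in IMQ+XYF. The leukocyte gene Itgam was called higher than in VAS+H2O with imiquimod and with imiquimod plus XYF, and these calls held in 5 and 6 of the 9 fits with a library left out. The part of these cells in the members' levels was not tested.

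S100b varied with the genes of cartilage, the supporting tissue of the ear. Over the 9 libraries its log2 CPM correlated with the mean of 13 tested cartilage genes at r = 0.98 and rho = 0.95, at 0.98 over 7 libraries without the 2 farthest from the median, and at 0.97 with group means taken out. Cartilage genes summed to 1579 to 2721 CPM in VAS+H2O, 460 to 731 CPM in IMQ+H2O and 896 to 2641 CPM in IMQ+XYF, where replicate 2 was the highest. Of the 13, 0 were positive by imiquimod (median -1.91) and 13 by XYF (median 1.50). edgeR called 3 lower by imiquimod, Col2a1, Col9a3 and Matn3, and 0 by XYF, where 12 had an unadjusted p under 0.05, while DESeq2 called 12 and 7. The edgeR calls of Col2a1, Col9a3 and Matn3 held in 3, 2 and 2 of the 9 fits with a library left out. Matn1, a defining cartilage marker, was at 0. Acan, the main proteoglycan of cartilage and the most abundant gene of the list, stood at 604 ± 159, 189 ± 56.6 and 533 ± 289 CPM in the 3 groups.

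Measured against Acan, S100b was steady, with 14.99 to 20.6 reads per 100 Acan reads, a 1.38-fold range beside 6.05-fold in CPM. Against Sox9, the transcription factor of chondrocytes, it ranged more widely, from 33.8 to 65.5 reads per 100 Sox9 reads, or 1.94-fold. Both references were chosen after the values were seen. S100b also correlated with the adipocyte list, led by Fabp4, at -0.70, and at -0.98 with group means taken out. Without the 2 libraries farthest from the median of the list, r was -0.21. Over the 7 libraries without VAS+H2O replicate 3 and IMQ+XYF replicate 2, it was -0.64. Other lists also ran against S100b, among them endothelium at -0.80 and leukocytes at -0.68, or -0.75 and -0.87 over those 7 libraries. Adipocyte genes summed to 537 to 878 CPM in VAS+H2O, 1087 to 1161 CPM in IMQ+H2O and 550.5 to 953 CPM in IMQ+XYF. What cartilage and fat contributed to the S100b reads was not tested.

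**Figure D4:**
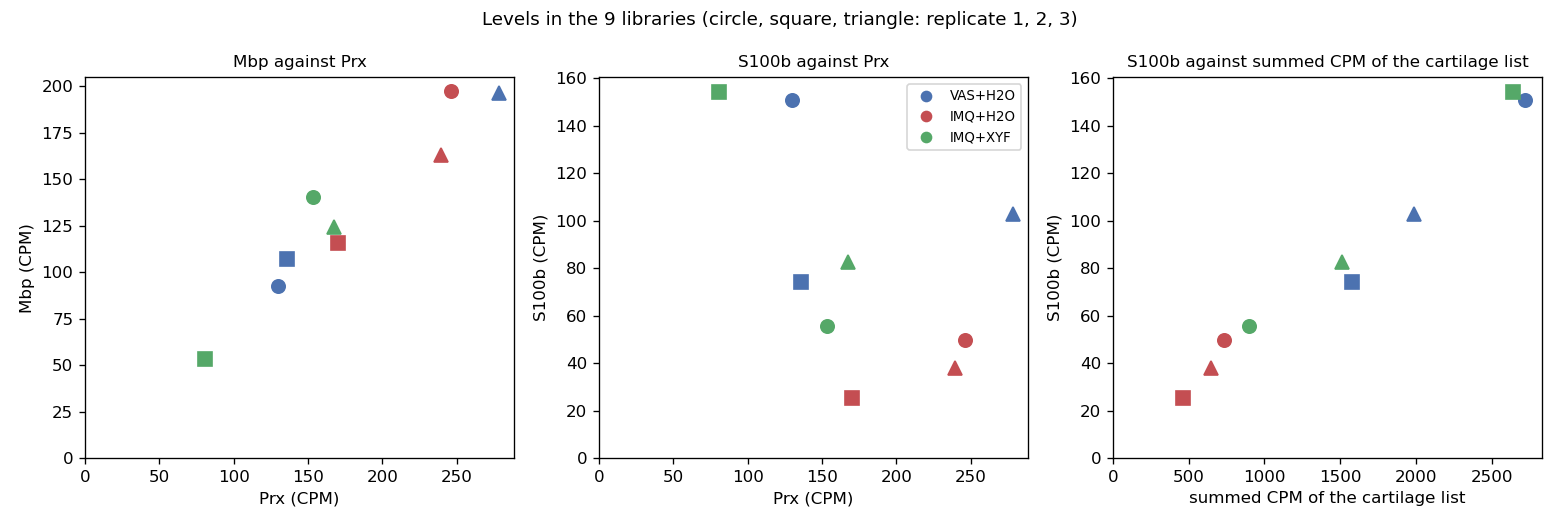
Levels in the 9 libraries, with axes from 0, for Mbp against Prx (left), S100b against Prx (middle) and S100b against the summed CPM of the cartilage list (right), coloured by group and with circle, square and triangle for replicates 1, 2 and 3. Mbp lies along a line with Prx from 80.7 to 279 CPM of Prx, S100b shows no such line with Prx, and it lies along a line with cartilage from 25.5 to 154 CPM of S100b.

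Ncam1 stood closest to muscle. Its r was 0.66 with the skeletal muscle list (12 of 12 tested, led by Myh1) and 0.63 with a list of satellite cell and denervation genes (6 of 7 tested, led by Chrna1). The first dropped to 0.14 without the 2 libraries farthest from the median of the list, and the second was then 0.77. Over the 7 libraries without VAS+H2O replicate 3 and IMQ+XYF replicate 2 they were 0.74 and 0.81. For the skeletal muscle list the 2 ways of leaving out libraries thus gave different results. With group means taken out they were 0.32 and 0.50. Of the 12 skeletal muscle genes, 9 were positive by imiquimod (median 0.22) and 0 by XYF (median -1.71). edgeR called 0 of them in each comparison, with 0, 10 and 6 at an unadjusted p under 0.05, and DESeq2 called 0, 2 and 2. Skeletal muscle genes summed to 668 to 3167 CPM in VAS+H2O, 1479 to 3109 CPM in IMQ+H2O and 151 to 1064 CPM in IMQ+XYF, so both Ncam1 and muscle genes had their lowest library in IMQ+XYF replicate 1. Whether muscle contributed to Ncam1 was not tested.

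The genes most like the members over the 9 libraries were ranked by Pearson's r between their log2 CPM and the mean centred log2 CPM of the 8 members, among 14525 genes with a mean of at least 1 CPM. Among the first 10 were Cavin3 (r = 0.97), Aspa, Sema3b, Gjc3, Shc4, Kank4, Cdk3-ps, Kif19a and Atf5 (r = 0.93), and 29 genes exceeded 0.9. Gjc3 encodes a gap junction protein of myelinating glia. Their log2 fold changes ran from 0.0029 to 0.25 by imiquimod and from -0.78 to -0.13 by XYF. Since the members chose these genes by likeness over the same libraries, their values are a description. The mean of the 8 members also includes S100b, which ran against the tight group and had the largest SD of log2 CPM among the members (0.876). Likeness to this mean is therefore not likeness to the tight group alone.

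Some reads of the members could belong to neighbours. On the opposite strand, S100b overlaps Dip2a (44.98 CPM on average), Prx overlaps Gm15541 (2.81 CPM), Mbp overlaps the pseudogene Rpl21-ps8 (2.96 CPM) and Ncam1 overlaps Gm11149 (0.0407 CPM). Whether the counting used the strand was not stated, so reads of these pairs may not be separated.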

How the data were processed

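The deposited table holds whole-number read counts per Ensembl gene, without normalization. Per the labels and the study's methods, the authors prepared TruSeq libraries, aligned reads with STAR 2.5 to GRCm38 and tested with DESeq2, and the processing notes also name FastQC, Cuffnorm and DESeq 1.22.1. The counting tool and its use of the strand are not given in the sources used here.

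Groups followed the labels. The counts of all 9 libraries entered 1 edgeR 4.0.16 quasi-likelihood fit in R 4.3.3 (filterByExpr, TMM, Benjamini-Hochberg over 22430 genes), checked on simulated data. Standard errors were the absolute log2 fold change over the square root of F. CPM are TMM-scaled, and log2 CPM for correlations used a prior count of 2. Coordinates and exon lengths came from GENCODE vM21 (GRCm38) and upstream sequences from RefSeq. Marker lists held 158 symbols, all matched by name.

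The members and lists were chosen with earlier results of these data known. Named from each nerve list were the 2 genes with the highest mean CPM and any called by edgeR, and from other lists the gene with the highest mean CPM. The label check genes and the 10 genes most like the members completed the rule, and some genes that it names are not reported here. Genes that DESeq2 alone called, Olig2, Erbb3, Cdh19, Sox9, Itgam and the cartilage genes beyond Acan were named after their values were seen. The same holds for Kcna1, Nefl, Nefm and Nefh. Chi-squared per degree of freedom between replicates was 37.5 to 218, so no library was a duplicate. The alternatives were DESeq2 1.42.0, DESeq2 size factors, no filter, only the 2 groups compared, a replicate block, no fold limit and each library left out, to which correlations and ratios over 7 libraries were added after the data were seen.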

Additional observations from a re-analysis of the deposited data

How the results depend on the processing

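Over the 8 genes, 3 comparisons and 14 alternatives (336 values), 317 kept their direction and side of the threshold, 2 passed the threshold (both S100b by imiquimod, given in the report) and 17 turned sign. None of the 17 was past the threshold.

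The number of genes called moved most. By imiquimod 223 became 948 with DESeq2, 496 with only the 2 groups compared, 86 with the replicate block and 25 to 455 with a library left out. By XYF 2 became 210, 1, 0 and 0 to 4 in the same order, and between IMQ+XYF and VAS+H2O 270 became 712, 33, 54 and 12 to 592, or 453 without the fold limit. Members called by imiquimod were 1 with DESeq2 and 0 to 1 with a library left out. The cause was not tested.

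With a library left out, the median of the members by imiquimod ran from 0.016 to 0.57, Pmp22 from -0.026 to 0.47 and Ncam1 from -0.30 to 0.0092. Between IMQ+XYF and VAS+H2O the members' median ran from -0.33 to 0.09, Mbp from -0.57 to 0.090, Pmp22 from -0.35 to 0.15, Prx from -0.63 to 0.011, Mag from -0.27 to 0.28, Sox10 from -0.30 to 0.30, S100b from -0.62 to 0.14 and Ngfr from -0.20 to 0.10. The adjusted p of S100b by imiquimod ran from 0.00720 to 0.258 over its alternatives.

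Replicate numbers name libraries only. Over 9 same-number pairs, the correlation of deviations from the group means ran from -0.18 to 0.12, with 1 over 0.1, and 1 of 9 libraries correlated best with its own number. With the replicate block Mag between IMQ+XYF and VAS+H2O turned from 0.0068 to -0.0017, and the members called stayed at 0 in all 3 comparisons.

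Depth did not limit the members, whose lowest level was far above the limit that a count of 0 allows, while 3 libraries per group limit the precision of each fold change.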
